A study of Mus musculus with 8 samples.

Results

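The mitochondrial ribosomal protein genes were taken as all genes of the expression table whose symbol begins with Mrpl or Mrps followed by a number. This choice used names and no measured value, and it gave 77 of 24354 genes, of which 48 had an Mrpl symbol and 29 an Mrps symbol. They were followed across 4 mouse cell types, with 2 sequenced libraries of each. Embryonic stem cells (ESCs) were the E14 line, labelled wild type and cultured with leukemia inhibitory factor (LIF) and serum on inactivated C3H mouse embryonic fibroblasts as feeder cells. Neural stem cells (NSCs) carried 2 transgenes, OG2+/- (GFP under the distal enhancer of Oct4) and ROSA26+/- (ubiquitous lacZ), and were cultured with EGF and FGF2 in N2 medium on gelatin, without feeder cells. Extended pluripotent stem cells (EPSCs) were line 1 at passage 15, also labelled wild type, derived from C57BL/6 embryos at the 8-cell stage, and were kept on feeder cells in LCDM, that is N2B27 medium to which human LIF, CHIR99021 and, as further additives, minocycline hydrochloride and dimethindene maleate were added. Hybrid cells were line 2-2 at passage 10, near-tetraploid and Oct4-GFP-positive. They were obtained by polyethylene glycol fusion of EPSCs with NSCs of this genotype and cultured in LCDM on feeder cells. The labels name 1 line for ESCs, for EPSCs and for hybrid cells. The 2 libraries of each of these groups thus measure the spread of repeated libraries and not that of independent derivations or fusions. For NSCs no line is named, and whether both libraries came from 1 derivation is not given.

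Mitochondria have their own ribosome, which translates the few proteins encoded by mitochondrial DNA, all of them subunits of the respiratory chain and ATP synthase. Its RNA comes from mitochondrial DNA, whereas all of its proteins are encoded in the nucleus, made in the cytosol and imported. Some of these proteins have homologues in the bacterial ribosome and others are found only in mitochondria. By subunit, 50 of the 77 genes belong to the large subunit and 26 to the small subunit, since Mrps18a and Mrps30, despite their symbols, encode proteins of the large subunit. The remaining gene, Mrps36, is now known to encode a component of the 2-oxoglutarate dehydrogenase complex. Of the 76 ribosomal genes, 46 were classed as encoding proteins with bacterial homologues and 30 as specific to mitochondria. The latter class includes Mrps18a and Mrps18b, which are paralogs of Mrps18c and so also related to bacterial S18, so that the classes are not strict. The genes lie on 17 chromosomes, and none of the 77 rows is a pseudogene. No gene of the mitochondrial genome was in the table, so ribosomal RNA and the products of mitochondrial translation were not measured here.

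Values are FPKM, fragments normalized for transcript length and for the number of mapped fragments. The steps between low values correspond to about 22.0 to 32.6 times 1000000 fragments in the 8 libraries. This is the divisor applied to FPKM, which can differ from the fragments of a library, since the library normalization is not given. By these values the member with the fewest fragments was Mrpl41, which rested on about 50 of them in its lowest library, the first of EPSCs. FPKM summed to 415240 and 415412 in the NSC libraries and to between 600674 and 653796 in the other 6, so the libraries were not brought to a common sum, and levels relative to this sum are given where they change a result. Levels of marker genes followed the labels. The summed FPKM of 8 pluripotency genes was 0.993 to 1.07 in NSCs and 4674 to 5681 in the other libraries, and that of 8 neural stem cell genes was 3701 to 3750 in NSCs and 10.6 to 19.3 elsewhere. The summed FPKM of 9 fibroblast genes was 4.97 and 5.13 in NSCs, 11.5 and 12.7 in ESCs, 82.6 and 85.4 in EPSCs, and 243 and 327 in hybrid cells. Postn, which is among these 9 genes, was used in the study as a gene specific to EPSCs. Without Postn the sums were 4.97 and 5.11 in NSCs, 11.1 and 12.1 in ESCs, 72.1 and 73.9 in EPSCs, and 212 and 285 in hybrid cells. Col1a2 and Lum were at 0 in both NSC libraries, most of whose sum came from Fbn1, at 3.88 and 3.91 FPKM against 2.22 and 2.32 in EPSCs and 0.50 and 0.54 in ESCs, and every fibroblast gene was detected in both EPSC libraries and in both hybrid libraries. The part that RNA of feeder cells has in the values of the mitochondrial ribosomal protein genes was not tested, and in these bulk libraries fewer cells of a type and less RNA per cell cannot be told apart.

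Promoter sequences from RefSeq (GRCm38.p6, 250 bases before to 50 bases after the start) were found for 68 of the 77 genes, with 74 promoters in all. Exact matches on either strand were counted for motifs bound by known regulators of nuclear genes for mitochondrial proteins. The motif GCGCATGC of nuclear respiratory factor 1 (NRF1) was in 10.8% of the 74 promoters, in 2.71% of all 32851 promoters and in 5.18% of the promoters of expressed genes. CCGGAAG, the core bound by ETS factors such as GABPA, was in 33.8%, 8.86% and 16.7%, respectively. AAGATGGCG, the YY1 motif, was in 10.8%, 1.4% and 2.87%. The ERR motif TCAAGGTCA and the motif ACTACAATT of THAP11 and ZNF143 were in none of the 74 promoters, against 0.423% and 0.393% of all promoters and 0.281% and 0.719% of those of expressed genes. The E-box CACGTG was in 9.46% of the 74 promoters, 7.15% of all promoters and 9.96% of those of expressed genes, and for TATAAA these shares were 6.76%, 13.6% and 6.97%. The promoters of these genes had a median GC content of 58.5%, against 52.7% for all promoters and 61.0% for those of expressed genes. A match describes the letters of the window and no binding was measured.

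The stretches before annotated start sites of 3 genes are shown because each of these genes stood apart in 1 cell type, namely Mrps6 (chr16:92058086-92058269, + strand) in NSCs, Mrpl33 (chr5:31613701-31613950, + strand) in EPSCs, and Mrpl22 (chr11:58171414-58171663, + strand) in hybrid cells. Capitals mark the NRF1 motif and, upstream of it in Mrpl22, the ETS motif. The start site used for Mrpl22 (58171664) is that of the RefSeq promoter entry and lies 1621 bases inside the gene, whose outermost RefSeq start is 58170043, whereas for Mrps6 and Mrpl33 both starts are the same. The ETS motif of Mrpl33 spans the start site and is not in capitals, and none of the motifs was found in the window of Mrps6, which is shown only as far as the first annotated exon.
Mrps6: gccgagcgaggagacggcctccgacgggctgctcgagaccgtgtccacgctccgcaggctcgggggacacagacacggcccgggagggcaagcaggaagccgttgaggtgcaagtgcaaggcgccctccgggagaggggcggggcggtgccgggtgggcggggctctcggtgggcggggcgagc
Mrpl33: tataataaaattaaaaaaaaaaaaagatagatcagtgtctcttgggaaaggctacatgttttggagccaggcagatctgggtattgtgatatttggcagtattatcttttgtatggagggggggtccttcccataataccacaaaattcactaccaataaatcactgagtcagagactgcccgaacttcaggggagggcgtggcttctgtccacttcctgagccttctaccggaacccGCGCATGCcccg
Mrpl22: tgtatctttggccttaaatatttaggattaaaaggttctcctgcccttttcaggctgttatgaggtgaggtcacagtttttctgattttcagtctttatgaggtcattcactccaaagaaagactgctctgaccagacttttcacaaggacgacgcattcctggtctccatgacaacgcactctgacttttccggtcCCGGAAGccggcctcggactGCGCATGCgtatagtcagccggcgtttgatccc

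All 77 genes were expressed in every library, at 5.23 to 253 FPKM, and all 77 were among the 13239 genes tested below. In every library, 70 of them were above 10 FPKM and 71 were above the median of the tested genes. The median of the 77 genes was 50.1 and 48.2 FPKM in the ESC libraries, 34.3 and 33.3 FPKM in the NSC libraries, 56.2 and 52.1 FPKM in the EPSC libraries, and 59.3 and 56.1 FPKM in the hybrid libraries. NSCs were thus lowest in this median, and the EPSC and hybrid libraries were all above the ESC libraries, whereas the difference between the EPSC and hybrid medians was within the spread of their libraries. The median of the tested genes ran the other way, at 8.89 to 9.1 FPKM in the 6 other libraries and 10.6 and 10.8 FPKM in NSCs. As a share of the summed FPKM of a library, the 77 genes took 0.692% and 0.693% in ESCs, 0.794% and 0.818% in NSCs, 0.830% and 0.803% in EPSCs, and 0.841% and 0.827% in hybrid cells. On this relative scale the order of the groups changed, with ESCs lowest and NSCs overlapping with EPSCs. This overlap rested on Mrps6, without which the shares were 0.687% and 0.688% in ESCs, 0.736% and 0.757% in NSCs, 0.824% and 0.798% in EPSCs, and 0.834% and 0.821% in hybrid cells.

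**Figure D1:**
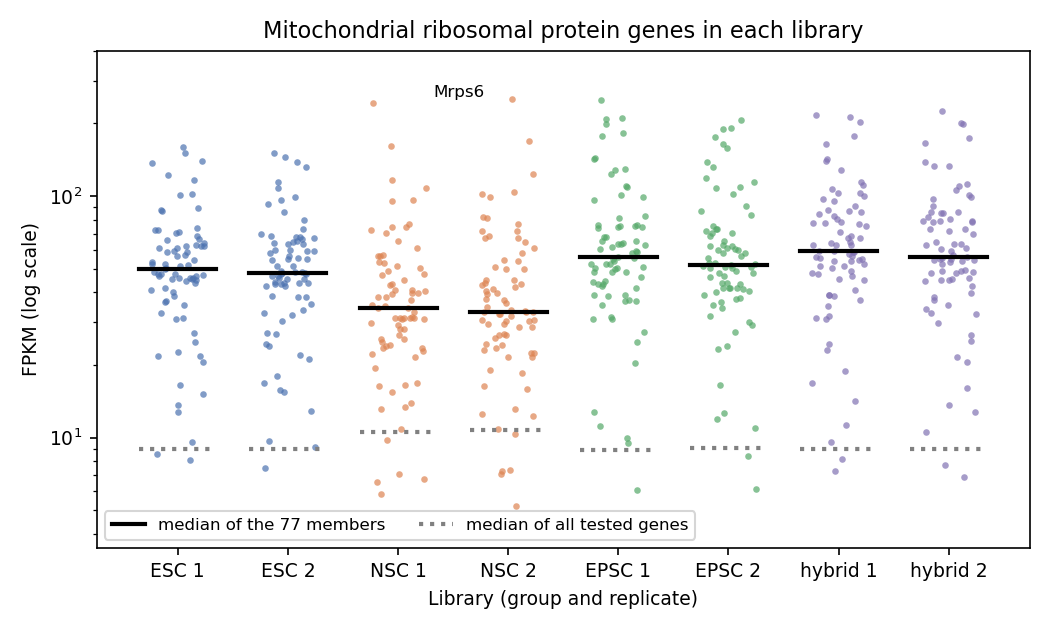
FPKM of the 77 mitochondrial ribosomal protein genes (points, log axis) in each of the 8 libraries, with the median of the 77 genes (solid line) and of all tested genes (dotted line). With FPKM as deposited, the solid lines lie at 33.3 and 34.3 FPKM in NSCs and at 48.2 FPKM or above in the other libraries, and Mrps6 is the highest point in both NSC libraries.

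The highest mean over the 8 libraries was that of Mrpl52, a mitochondria-specific protein of the large subunit, with 184 FPKM. It was followed by Mrpl42, also specific to mitochondria, with 165 FPKM, by the stalk protein gene Mrpl12 with 164 FPKM, and by Mrpl20 and Mrpl18 with 147 and 131 FPKM. At the low end were the small-subunit gene Mrps25 with 7.34 FPKM, Mrpl41 with 8.31 FPKM, and Mrpl19, Mrpl57 and Mrpl17 with 10, 12.0 and 13.5 FPKM. mRNA levels per length thus spanned a wide range among genes whose products belong to the same particle. The libraries of a group differed far less, since the largest ratio between 2 libraries of a group was 1.36, for Mrpl47 in hybrid cells. The first EPSC library was above the second for 69 of the 77 genes, with a median difference of 0.11 on the log2 scale, against 52.7% of the tested genes. For comparison, the median of 85 cytosolic ribosomal protein genes was 40.0 and 41.7 times the median of the 77 genes in ESCs, 35.3 and 35.2 times in EPSCs, 31.6 and 33.4 times in hybrid cells, and 19.3 and 19.5 times in NSCs.

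The 2 subunits were expressed in nearly the same proportion in all cell types once Mrps6 was set aside. The summed FPKM of the large-subunit genes was 2.15 and 2.13 times that of the small-subunit genes in ESCs, 1.85 and 1.87 times in NSCs, 2.34 and 2.33 times in EPSCs, and 2.32 and 2.31 times in hybrid cells. Without Mrps6, the ratios were 2.21 and 2.18 in ESCs, 2.35 and 2.38 in NSCs, 2.40 and 2.38 in EPSCs, and 2.39 and 2.37 in hybrid cells. The low ratio of NSCs thus rested on Mrps6, and without it ESCs had the lowest ratio.

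Hybrid cells had the highest mean for 37 genes, EPSCs for 27, ESCs for 8 and NSCs for 5. NSCs had the lowest mean for 59 genes, ESCs for 11, EPSCs for 4 and hybrid cells for 3. For these counts by mean no share of the tested genes is given, unlike for the following counts of libraries without overlap. Both NSC libraries lay below all other libraries for 54 genes (70.1%, against 39.2% of the tested genes), and both hybrid libraries lay above all others for 31 genes (40.3%, against 14.1%). Both EPSC libraries lay above all others for 19 genes (24.7%, against 11.7%). The 5 genes that were highest in both ESC libraries were Mrpl17, Mrpl51, Mrps18a, Mrps31 and Mrps34 (6.49%, against 16.6% of the tested genes), and the 2 that were highest in both NSC libraries were Mrpl41 and Mrps6, 2.60% against 37.0% of the tested genes. With each library scaled to a sum of 1000000, the NSC libraries were below all others for 26 genes (33.8%, against 25.5%) and above them for 21 (27.3%, against 52.2%), and the hybrid libraries were above all others for 23 (29.9%, against 10.2%). On that scale ESCs were as often lowest as NSCs, with both ESC libraries below all others for 27 genes (35.1%, against 20.3%), in place of 8 (10.4%, against 17.5%) with FPKM as deposited.

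**Figure D2:**
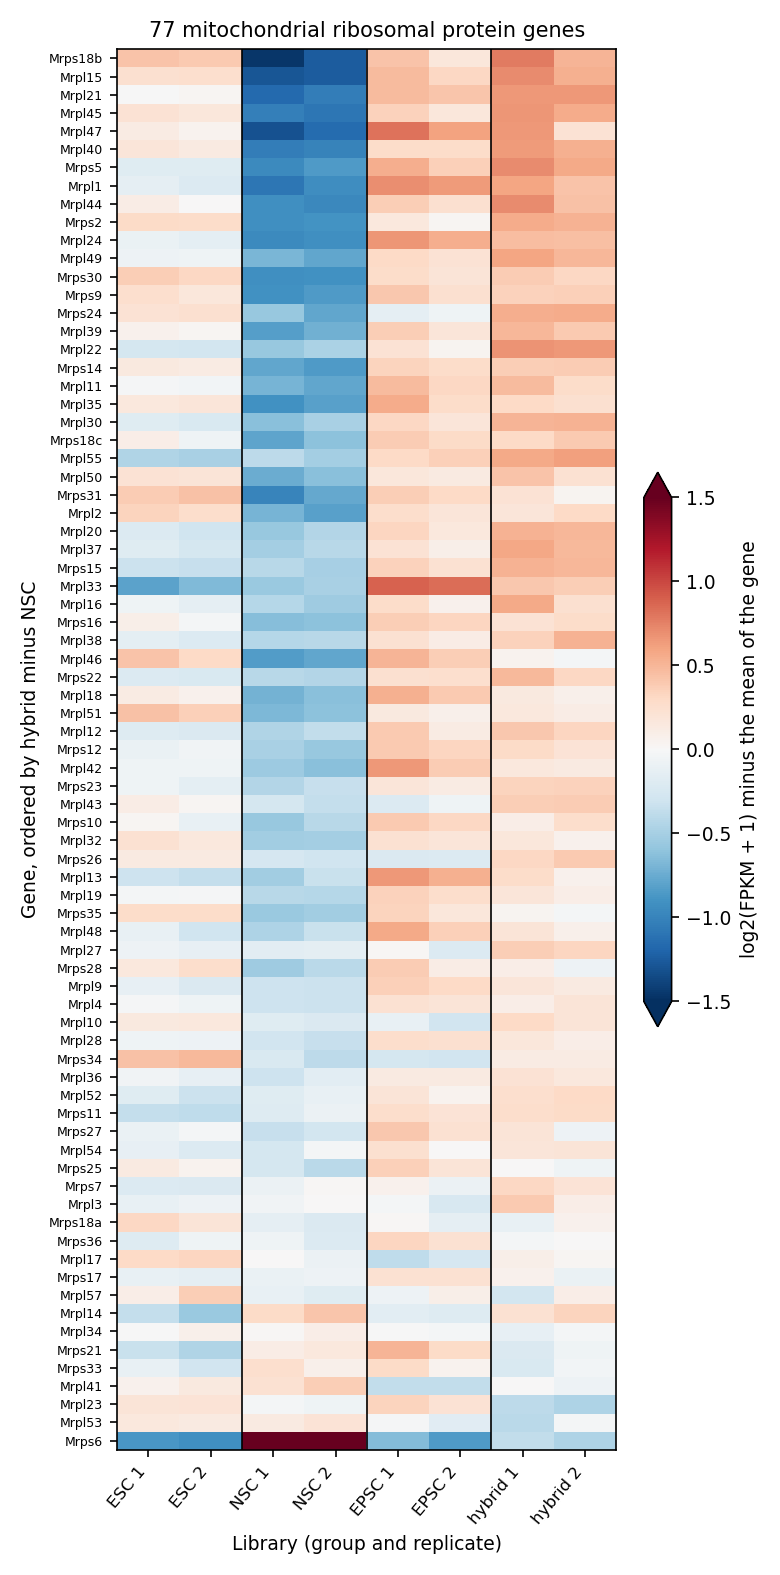
Heat map of the 77 genes (rows, ordered by the log2 difference between hybrid cells and NSCs) in the 8 libraries (columns), as log2(FPKM + 1) minus the mean of the gene over the libraries. With FPKM as deposited, most rows are blue in NSCs, the bottom row (Mrps6) is red in NSCs only, and Mrpl33 is reddest in EPSCs.

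Hybrid cells were first compared with NSCs, the somatic parent. NSCs differed from every other group also in medium and in the absence of feeder cells, and hybrid cells also in ploidy. In all comparisons with NSCs these cannot be told apart from the cell type. With FPKM as deposited, most mitochondrial ribosomal protein genes had higher levels in hybrid cells and few were lower, whereas with equal sums of the libraries a larger part was lower. limma on log2(FPKM + 1), with Benjamini-Hochberg adjustment over the 13239 tested genes, called 64 of the 77 genes higher and 6 lower at an adjusted p under 0.05, and did not call the other 7. Of all tested genes, 44.5% were called higher and 42.0% lower. The median log2 fold change of the 77 genes was 0.77, that of all tested genes was 0.06, and 68 of the 77 genes lay above the latter. With libraries scaled to a sum of 1000000, where the median of all tested genes moved to -0.51, 38 of the 77 genes were called higher and 26 lower (30.3% and 57.6% of all tested genes). The members exceeded the median of all tested genes by 0.71 with FPKM as deposited and by 0.45 after quantile normalization, and a common factor for each library leaves this excess nearly the same by construction (0.66 with equal sums). Under all 4 scalings tried, 38 genes were called higher and 5 lower, and 14 genes were called in opposite directions under different scalings. The same counts over all tested genes are not given here, so these do not set the members apart. The differences also varied less among the members than among all tested genes, since the standard deviation of the log2 fold changes was 0.66 for the 77 genes and 1.71 for all tested genes. This was not particular to the members. It was 0.66 for genes of mitochondrial ribosome assembly, 0.67 for mitochondrial tRNA synthetases and 0.69 for mitochondrial translation factors. For genes of mitochondrial DNA replication and transcription it was 0.96.

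The largest difference among the genes higher in hybrid cells was that of Mrps18b, which encodes a small-subunit paralog of ribosomal protein S18. It was at 95.3 and 78.6 FPKM in hybrid cells, 19.4 and 22.5 in NSCs, 74.6 and 62.0 in EPSCs, and 74.1 and 72.8 in ESCs, so NSCs were far below the other groups and both hybrid libraries were above all others. The difference of hybrid cells from NSCs in log2(FPKM + 1) was 2.00 ± 0.12 (SE, limma, Benjamini-Hochberg adjusted p = 1.83e-06). Mrpl15, a conserved protein of the large subunit, was at 64.4 and 57.2 FPKM in hybrid cells against 15.5 and 15.9 in NSCs, a change of 1.88 on the log2 scale. Mrpl21, whose product binds the large ribosomal RNA, was at 86.2 and 85.7 FPKM against 23.6 and 25.9, a change of 1.76. Mrpl45, which helps to hold the ribosome at the inner membrane, was at 84.5 and 78.9 FPKM against 25.7 and 24.5, a change of 1.66. For each of these genes the 2 libraries of hybrid cells lay more than 3-fold above those of NSCs. Mrpl47, near the exit of the peptide tunnel, was at 67.1 and 49.2 FPKM against 16.5 and 18.5, also a change of 1.66 but with the widest spread between hybrid libraries of the 77 genes. The log2 fold changes of these 4 genes had adjusted p between 6.99e-08 and 1.4e-05 (limma with Benjamini-Hochberg adjustment), and all 5 genes were called higher under every scaling.

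The exception was Mrps6, a small-subunit protein with a bacterial homologue. Its level was 244 and 253 FPKM in NSCs, whereas hybrid cells had 45.0 and 42.3, EPSCs 36.8 and 31.9, and ESCs 31.4 and 30.5 FPKM. NSCs were far above the other 3 groups, which makes Mrps6 the most abundant of the 77 mRNAs in NSCs, whereas it was below the median of the 77 genes in the other cells. On the log2 scale, hybrid cells differed from NSCs by -2.48 ± 0.07 (SE, limma, Benjamini-Hochberg adjusted p = 4.84e-08). 5 further genes were called lower with no overlap of libraries and differed much less. Mrps21 was at 76.9 and 85.5 FPKM in hybrid cells against 96.3 and 99.5 (-0.27), and was not called without either NSC library or without the first hybrid library. Mrpl53 was at 35.0 and 45.9 FPKM in hybrid cells and 51.3 and 54.3 in NSCs, Mrpl23 at 31.4 and 29.9 against 40.5 and 39.7, Mrpl41 at 8.19 and 7.74 against 9.75 and 10.9, and Mrps33 at 18.9 and 21.5 against 26.7 and 23.5. The log2 fold changes of the latter 4 genes were -0.39, -0.38, -0.33 and -0.30, with adjusted p between 0.000468 and 0.0334 (limma with Benjamini-Hochberg adjustment). Mrpl41 was not called after quantile normalization, Mrpl53 was not called without the second NSC library, and Mrps33 was not called without the first NSC library or without the first hybrid library.

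By the rule in the methods of the study, applied here as a larger group mean that exceeds 3 FPKM and is more than 3 times the other, 7 genes passed with higher and 1 with lower levels in hybrid cells than in NSCs, against 12.7% and 16.3% of the tested genes. With both thresholds at 2, 29 genes passed in either direction. With libraries scaled to a common sum, only 1 gene passed, and it was Mrps6. Shares of all tested genes for these alternatives are not given here, so the counts do not set the members apart. In the plot of single genes, Mrps18b and Mrpl15 show the usual pattern of low NSC levels and Mrps6 the opposite one.

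**Figure D3:**
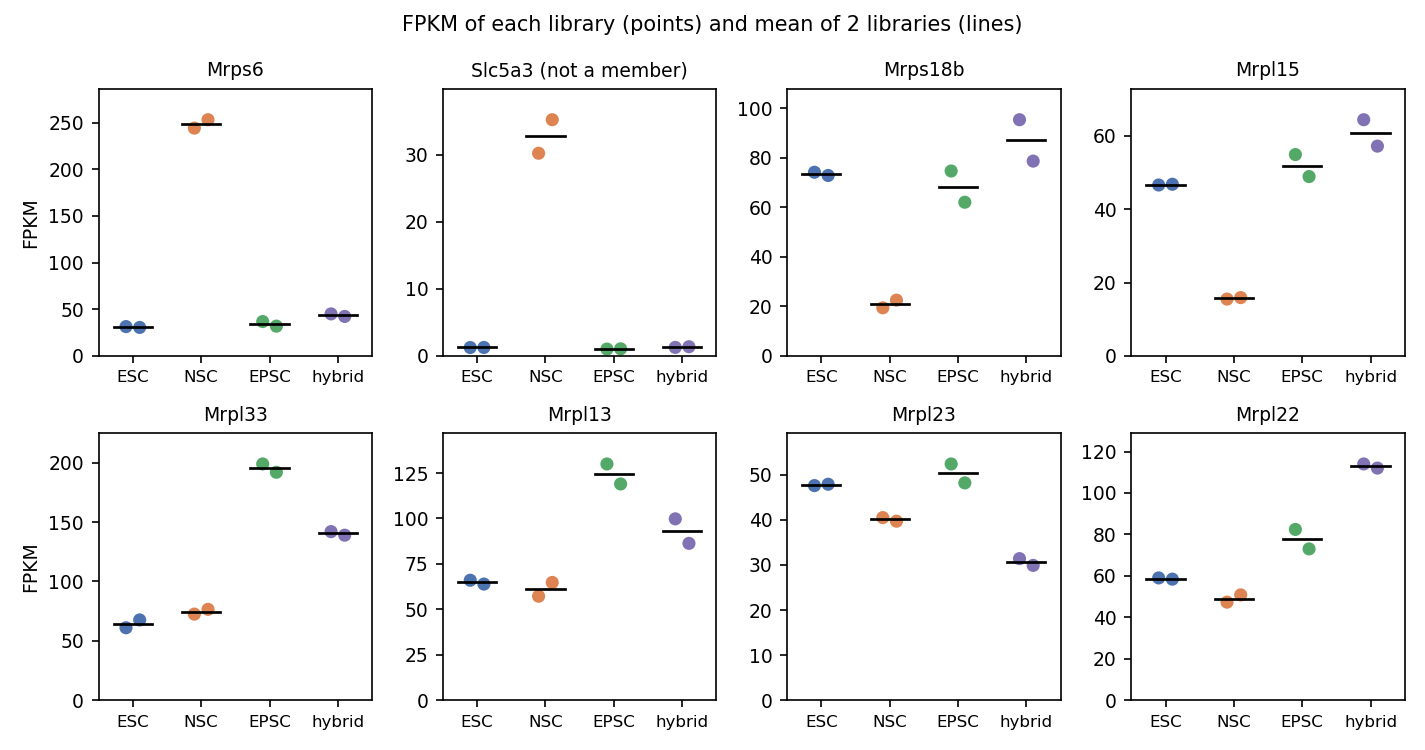
FPKM of 7 members and of Slc5a3, a neighbour of Mrps6, in each library (points) with the mean of the 2 libraries of a group (lines). Mrps6 and Slc5a3 are both highest in NSCs, Mrps18b and Mrpl15 are lowest in NSCs, Mrpl33 and Mrpl13 are highest in EPSCs, Mrpl23 is lowest in hybrid cells and Mrpl22 is highest in hybrid cells.

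Mrps6 lies on chromosome 16 of GRCm38 (92058336 to 92112227, + strand), and its RefSeq start is 14 bases after that of Slc5a3, which encodes the sodium/myo-inositol cotransporter on the same strand. In the GENCODE M21 annotation the first exon of a transcript of Mrps6 (211 bases) and that of a transcript of Slc5a3 (159 bases) overlap and end at the same base, 92058480, so that 159 exonic bases, 10.4% of those of Mrps6, are shared. Other transcripts of both genes start with other exons. Slc5a3 was at 30.2 and 35.2 FPKM in NSCs, and at 1.25 and 1.26 in ESCs, 1.02 and 1.06 in EPSCs, and 1.27 and 1.37 in hybrid cells. Both genes were thus high in NSCs only, and Slc5a3 in hybrid cells differed from NSCs by -3.86 on the log2 scale ± 0.09 (SE, limma, Benjamini-Hochberg adjusted p = 1.61e-08). The longest annotated transcript of Slc5a3 has 10913 bases and that of Mrps6 has 1115. How reads of the shared bases were divided between them is not given in the sources used here, and its part in the level of Mrps6 was not tested.

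The comparison of EPSCs with NSCs shows the difference between the 2 parental cell types, and it shares the NSC libraries with the comparison above. Whether the sequenced EPSC and NSC cultures were those that were fused is not given. limma with Benjamini-Hochberg adjustment called 62 of the 77 genes higher in EPSCs and 4 lower, against 45.2% and 41.0% of the tested genes. The median log2 fold change was 0.72, against 0.08 for all tested genes. With libraries scaled to a sum of 1000000, 37 genes were called higher and 23 lower (30.7% and 56.8% of all tested genes), and the median of all tested genes moved to -0.48. After quantile normalization the median of the 77 genes was 0.44, against 0.07 for all tested genes. Mrpl47 came first, with 75.5 and 65.0 FPKM in EPSCs against 16.5 and 18.5 in NSCs and a log2 fold change of 1.94 ± 0.14 (SE, limma, Benjamini-Hochberg adjusted p = 5.6e-06). Mrpl1, which forms the L1 stalk that moves with the exiting tRNA, was at 24.9 and 23.9 FPKM against 6.57 and 7.37, a change of 1.67. Mrpl15, Mrps18b and Mrpl21 followed with 1.66, 1.65 and 1.55. Mrps6 was lower in EPSCs by a log2 fold change of -2.82. Lower by less were Mrpl41, at 6.09 and 6.11 FPKM against 9.75 and 10.9 (-0.67), Mrpl14 at 44.6 and 43.6 against 61.0 and 66.8 (-0.52), and Mrpl17 at 9.99 and 11.0 against 13.4 and 12.5 (-0.28). Mrpl17 was not called after quantile normalization or without the first NSC library. By the rule of the study, 5 genes were higher in EPSCs and 1 lower, against 12.3% and 16.5% of the tested genes. After scaling to a common sum only 1 of the 77 genes passed, and the share of the tested genes is not given for that scaling.

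ESCs differed from NSCs in the same 2 libraries of NSCs by smaller amounts. Of the 77 genes, limma with Benjamini-Hochberg adjustment called 54 higher in ESCs and 8 lower, against 42.8% and 41.9% of the tested genes, with a median log2 fold change of 0.38 against 0.03. Here the direction depended on the scaling: with each library at a sum of 1000000, 26 genes were called higher in ESCs and 35 lower (29.4% and 56.6% of all tested genes), and the median of the 77 genes was -0.14 while that of all tested genes was -0.47. Mrps18b again came first, with a log2 fold change of 1.76, followed by Mrpl15 (1.51), Mrpl47 (1.31), Mrps31 (1.29) and Mrps30 (1.25), all called higher under each scaling. Mrps31, a mitochondria-specific protein of the small subunit, was at 43.7 and 45.5 FPKM in ESCs and 16.3 and 19.1 in NSCs, and Mrps30 was at 57.0 and 54.7 against 22.8 and 23.0. The genes lower in ESCs were led by Mrps6 (-2.96), and by Mrpl14 (-0.81), at 38.6 and 33.7 FPKM against 61.0 and 66.8. Mrps21 (-0.52), Mrps33 (-0.37) and Mrps11 (-0.23) followed, and Mrps33 was not called without the second ESC library or without the first NSC library. By the rule of the study, 1 gene was higher in ESCs and 1 lower, against 11.7% and 15.9% of the tested genes. Mrpl14 shares 11.2% of its exonic bases with Tmem63b on the opposite strand, whose level was 48.4 and 49.1 FPKM in NSCs and 13.9 to 16.3 FPKM in the other libraries. The strand setting of the quantification is not given in the sources used here, and the part of this overlap was not tested.

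**Figure D4:**
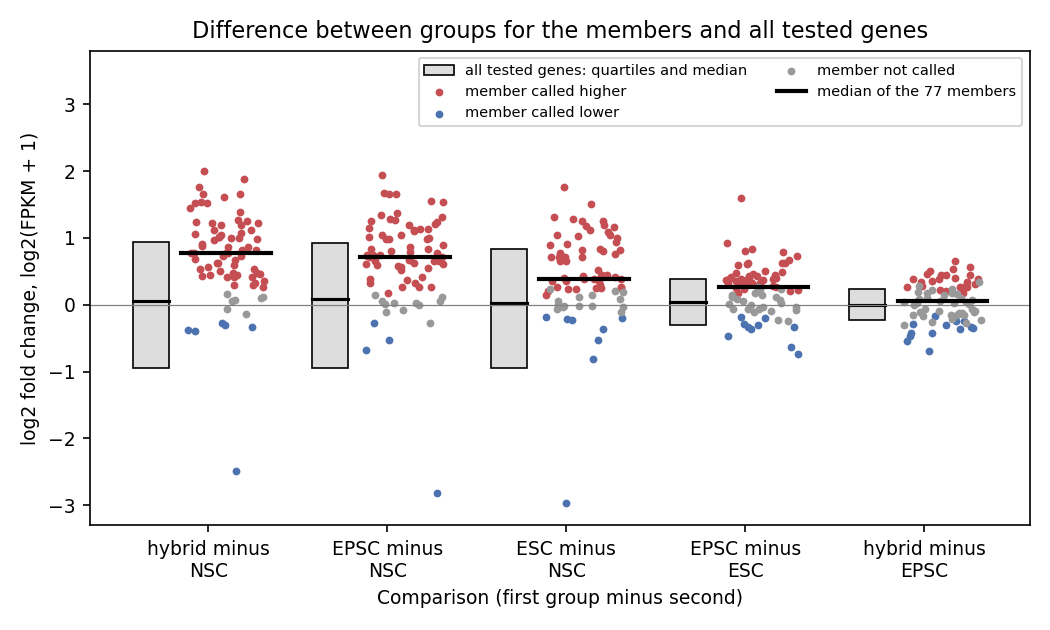
Differences between groups on the log2(FPKM + 1) scale for the 77 genes (points, coloured by the limma call at a Benjamini-Hochberg adjusted p under 0.05), with their median (thick line) and the quartiles and median of all tested genes (box) in each of 5 comparisons. With FPKM as deposited, the medians of the 77 genes are 0.77, 0.72 and 0.38 against NSCs (-0.14 for ESCs with equal sums), 0.26 for EPSCs against ESCs and 0.05 for hybrid cells against EPSCs, and Mrps6 is the point below -2 in each comparison with NSCs.

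EPSCs were compared with ESCs, 2 pluripotent cell types grown on feeder cells in different media. More of the genes were called higher than lower in EPSCs. limma with Benjamini-Hochberg adjustment called 43 of the 77 genes higher and 10 lower, against 33.7% and 27.3% of the tested genes, with a median log2 fold change of 0.26 against 0.04. Under the other scalings between 35 and 38 genes were called higher and 11 or 12 lower, against 29.7% to 30.6% and 29.2% to 31.2% of all tested genes. The 46 genes with bacterial homologues had a median log2 fold change of 0.32, with 30 called higher and 4 lower, and the 30 mitochondria-specific genes had a median of 0.10, with 12 called higher and 6 lower. After quantile normalization these medians were 0.18 and 0.02, against 0.01 for all tested genes, with 25 called higher and 5 lower and with 9 called higher and 7 lower, and the median of the mitochondria-specific genes was 0.02 or 0.03 under each of the 3 other scalings. The difference between these classes was not tested. In the same comparison the summed FPKM of the 9 fibroblast genes was 82.6 and 85.4 in EPSCs and 11.5 and 12.7 in ESCs. LCDM also contains minocycline, an antibiotic of the tetracycline class, which act on bacterial ribosomes, and the ESC medium does not. The medium, the genetic background and the line cannot be told apart from the cell type in this design.

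Mrpl33, a small conserved protein of the large subunit, had by far the largest difference. It was at 199 and 192 FPKM in EPSCs, 61.0 and 67.6 in ESCs, 142 and 139 in hybrid cells, and 72.5 and 76.5 in NSCs, so no 2 groups overlapped. The log2 fold change between EPSCs and ESCs was 1.59 ± 0.06 (SE, limma, Benjamini-Hochberg adjusted p = 3.47e-06). By the rule of the study, 1 of the 77 genes was higher in EPSCs and none was lower, against 2.36% of the tested genes in each direction, and this gene was Mrpl33 with a ratio of 3.04. Without the first ESC library, without the first EPSC library or after scaling to a common sum, no gene passed it. Mrpl13, also conserved, was at 130 and 119 FPKM in EPSCs and 66.0 and 63.9 in ESCs, a log2 fold change of 0.93. Mrpl1 followed with 24.9 and 23.9 FPKM against 13.6 and 12.9 (0.83), Mrpl55 with 38.5 and 40.3 against 22.6 and 21.9 (0.80), and Mrps21 with 128 and 109 against 70.7 and 64.9 (0.79). Each of these genes was below 2-fold, and the libraries of the 2 groups did not overlap.

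Lower in EPSCs than in ESCs were genes of both subunits. Mrps34, a mitochondria-specific protein of the small subunit, was at 37.1 and 36.6 FPKM in EPSCs and 61.1 and 63.4 in ESCs, a log2 fold change of -0.74 ± 0.07 (SE, limma, Benjamini-Hochberg adjusted p = 8.5e-05). Mrpl17 was at 9.99 and 11.0 FPKM against 16.6 and 16.9 (-0.63), and Mrpl41 at 6.09 and 6.11 against 8.60 and 9.12 (-0.47). Mrpl10, the base of the stalk that binds translation factors, was at 38.9 and 34.3 FPKM against 47.0 and 47.4 (-0.36), and Mrps26 at 35.3 and 35.4 against 45.1 and 45.2 (-0.34). These 5 genes were lowest in EPSCs or close to the NSC level there. Mrps34 shares 63.4% of its exonic bases with Mapk8ip3 on the opposite strand and 37.0% with Nme3 on the same strand, and in all 23 of the 77 genes share exonic bases with another gene of the table, 4 of them on the same strand. The part of these overlaps in the values was not tested.

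Hybrid cells were then compared with EPSCs, the pluripotent parent, whose medium and feeder cells they share. The near-tetraploidy and the passage of the hybrid line cannot be told apart from the fusion in this design. Differences were small and went both ways. limma with Benjamini-Hochberg adjustment called 25 of the 77 genes higher in hybrid cells and 13 lower, against 22.5% and 21.9% of the tested genes, and 39 were not called. The median log2 fold change was 0.05, against 0.00 for all tested genes, but 0.12 without the first EPSC library and 0.00 without the second. None of the 77 genes passed the rule of the study, against 1.04% of the tested genes higher and 0.551% lower. A fit of the hybrid and EPSC libraries alone called 11 genes higher and 6 lower, against 10.8% and 10.4% of the tested genes. Without the first EPSC library, 28 genes were called higher and 7 lower (18.3% and 17.6% of the tested genes), and without the second, 17 higher and 15 lower (18.6% and 19.5%). All 9 fibroblast genes were called higher in hybrid cells than in EPSCs, with a median log2 fold change of 1.62.

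Mrps24, a conserved protein of the small subunit near the entry of the mRNA, was at 78.2 and 78.9 FPKM in hybrid cells, with 48.5 and 51.1 in EPSCs, 62.4 and 63.4 in ESCs, and 35.6 and 30.6 in NSCs. The difference of hybrid cells from EPSCs in log2(FPKM + 1) was 0.65 ± 0.07 (SE, limma, Benjamini-Hochberg adjusted p = 0.000782). Hybrid cells were above every other group for this gene. Mrps26 was at 51.2 and 54.5 FPKM against 35.3 and 35.4 in EPSCs (0.57), and Mrpl22, whose product lines the peptide tunnel, at 114 and 112 against 82.4 and 73.0 (0.53). Mrpl43 was at 55.0 and 55.4 FPKM against 36.8 and 40.6 (0.50), and Mrpl14, at the interface of the subunits, at 58.6 and 63.2 against 44.6 and 43.6 (0.46). Of these, Mrpl14 was high in NSCs as well, whereas Mrps24, Mrps26, Mrpl22 and Mrpl43 were above both parents.

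Among the genes lower in hybrid cells, Mrpl23, which lies beside the exit of the peptide tunnel, changed most. It was at 31.4 and 29.9 FPKM in hybrid cells, with 52.4 and 48.2 in EPSCs, 40.5 and 39.7 in NSCs, and 47.6 and 47.9 in ESCs, so hybrid cells were below every other group. The log2 fold change against EPSCs was -0.69 ± 0.06 (SE, limma, Benjamini-Hochberg adjusted p = 0.000276). Mrps21 was at 76.9 and 85.5 FPKM against 128 and 109 in EPSCs (-0.54), and Mrpl33 at 142 and 139 against 199 and 192 (-0.47). Mrpl46 was at 40.8 and 38.4 FPKM against 56.2 and 51.1 (-0.43), and Mrpl13 at 99.8 and 86.3 against 130 and 119 (-0.42). Mrpl33 and Mrpl13 thus lay between the levels of EPSCs and NSCs in hybrid cells, while Mrps21 lay below both.

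The position of hybrid cells relative to both parents was also counted for all 77 genes. Hybrid cells were nearer to EPSCs for 65 genes (84.4%) and nearer to NSCs for 12, and among all tested genes 83.6% were nearer to EPSCs. Both hybrid libraries lay above all libraries of both parents for 34 genes (44.2%, against 18.7% of the tested genes) and below them for 3 (3.90%, against 16.2%), namely Mrpl23, Mrps21 and Mrps33. With libraries scaled to a sum of 1000000, these counts were 26 (33.8%, against 13.6%) and 10 (13.0%, against 22.4%). With FPKM as deposited, 64 of the 77 genes were called higher in hybrid cells than in NSCs, against 44.5% of the tested genes. The count above both parents thus restates part of that difference. Against EPSCs alone, 25 genes were called higher, against 22.5% of the tested genes, with a median log2 fold change of 0.05 against 0.00. The shares above and below both parents rest on the same libraries as the comparisons above and were not tested.

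The 3 paralogs of ribosomal protein S18 behaved differently from each other. Mrps18b rose 4.15-fold from NSCs to hybrid cells in its mean FPKM, as given above, whereas Mrps18c, the form closest to bacterial S18, was at 103 and 110 FPKM in hybrid cells and 47.6 and 53.9 in NSCs, which is a difference of 1.06 on the log2 scale (limma, Benjamini-Hochberg adjusted p = 8.07e-06). With equal sums the differences of Mrps18b and Mrps18c were 1.41 and 0.45 on the log2 scale, and both were still called higher. Mrps18a, part of the large subunit, was at 54.1 and 61.1 FPKM in hybrid cells and 52.9 and 50.1 in NSCs, and the difference of 0.16 on the log2 scale did not pass the test (limma, Benjamini-Hochberg adjusted p = 0.111). It was called higher without the first hybrid library (0.24) and lower with equal sums (-0.46). Mrps18a was highest in ESCs, at 72.3 and 67.0 FPKM. In NSCs the least expressed paralog was therefore Mrps18b, at 19.4 and 22.5 FPKM, and in EPSCs and hybrid cells it was Mrps18a.

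The stalk that recruits translation factors is built from the products of Mrpl10, Mrpl11 and Mrpl12. Mrpl12, present in several copies per ribosome, was at 212 and 200 FPKM in hybrid cells, with 210 and 175 in EPSCs, 140 and 138 in ESCs, and 117 and 124 in NSCs. Mrpl10, which anchors it, was at 52.3 and 48.4 FPKM in hybrid cells, with 38.9 and 34.3 in EPSCs, 47.0 and 47.4 in ESCs, and 37.1 and 36.2 in NSCs. Mrpl11 was at 30.9 and 26.7 FPKM in hybrid cells, with 30.9 and 27.3 in EPSCs, 21.7 and 21.2 in ESCs, and 13.1 and 12.3 in NSCs. With FPKM as deposited, Mrpl12, Mrpl10 and Mrpl11 were called higher in hybrid cells than in NSCs, with log2 fold changes of 0.77, 0.45 and 1.12, whereas with equal sums Mrpl11 was called higher (0.54), Mrpl12 was not called (0.16) and Mrpl10 was called lower (-0.16). Mrpl10 was not distinguishable between EPSCs and NSCs, with a log2 fold change of 0.00 ± 0.07 (SE, limma, Benjamini-Hochberg adjusted p = 0.964). With equal sums Mrpl10 was called lower in EPSCs than in NSCs (-0.61).

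Mrpl46 and Mrps11 form a head-to-head pair on chromosome 7, with RefSeq starts 42 bases apart at 78783089 and 78783131 of GRCm38, and their order of levels across the cell types differed. In GENCODE M21 they share 173 exonic bases on opposite strands, 12.2% of those of Mrpl46 and 8.0% of those of Mrps11. The part of this overlap in their levels was not tested. Mrpl46 was at 53.2 and 48.6 FPKM in ESCs, 21.5 and 22.5 in NSCs, 56.2 and 51.1 in EPSCs, and 40.8 and 38.4 in hybrid cells. Mrps11 was at 25.0 and 24.5 FPKM in ESCs, 28.2 and 30.3 in NSCs, 39.0 and 37.5 in EPSCs, and 39.0 and 39.7 in hybrid cells. Mrpl46 was thus lowest in NSCs and Mrps11 lowest in ESCs. Between ESCs and NSCs their log2 fold changes were 1.17 and -0.23, both called by limma with Benjamini-Hochberg adjustment (adjusted p = 2.1e-06 and 0.00579). Both were called higher with FPKM as deposited in EPSCs than in NSCs (1.25 and 0.38) and in hybrid cells than in NSCs (0.82 and 0.42), whereas with equal sums Mrps11 was called lower in both (-0.22 and -0.19). This pair was chosen after its values were seen. Mrps36, which is no ribosomal protein, was at 24.5 and 25.1 FPKM in hybrid cells, with 31.5 and 29.4 in EPSCs, 21.7 and 23.9 in ESCs, and 23.9 and 21.5 in NSCs. On the log2 scale hybrid cells differed from NSCs by 0.12 in this gene, which did not pass the test (limma, Benjamini-Hochberg adjusted p = 0.171), and with equal sums it was called lower (-0.49).

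**Figure D5:**
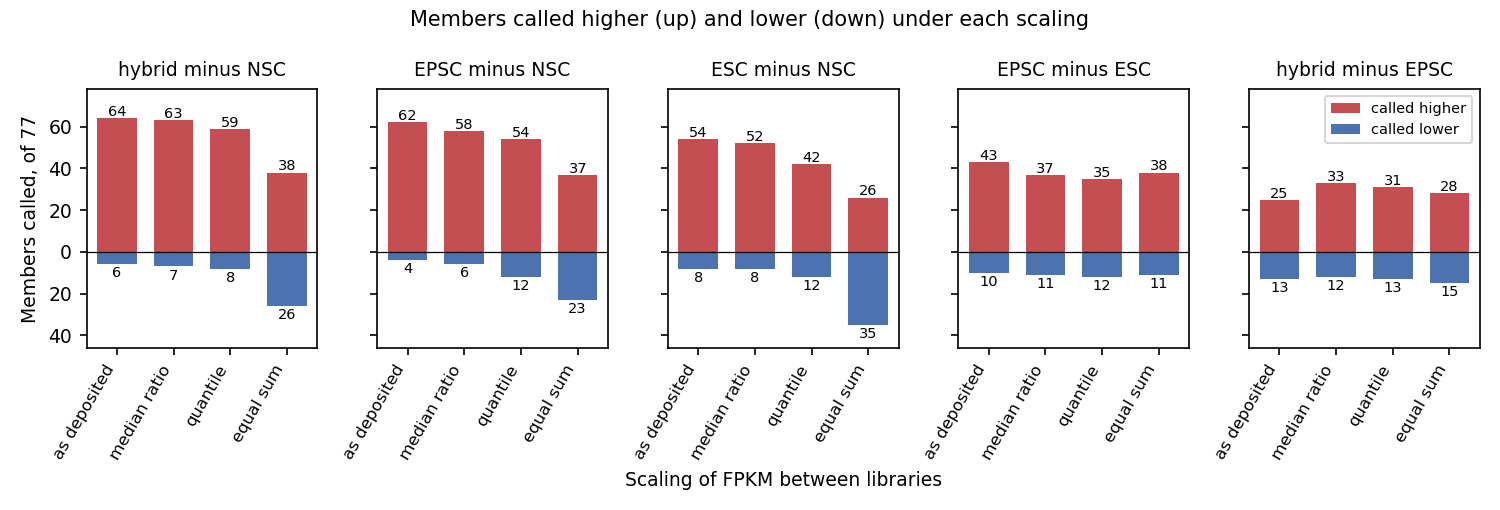
Number of the 77 genes called higher (red, upward) and lower (blue, downward) by limma in 5 comparisons, with FPKM as deposited and under 3 scalings between libraries. In the comparisons with NSCs the counts move from 64, 62 and 54 higher with FPKM as deposited to 38, 37 and 26 with equal sums, while the comparisons among pluripotent cells move by at most 8 genes.

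Other genes of the mitochondrial translation system were counted from lists written for this purpose. The counts between hybrid cells and NSCs stand against 44.5% of all tested genes called higher and 42.0% lower with FPKM as deposited, and 30.3% and 57.6% with equal sums. Of 6 proteins of the mitochondrial ribosome with other symbols, all 6 were called higher in hybrid cells than in NSCs with FPKM as deposited, and 3 were called higher and 2 lower with equal sums. Aurkaip1 was at 95.3 and 98.9 FPKM in hybrid cells and 41.8 and 46.3 in NSCs, and Ptcd3 at 56.6 and 47.3 against 23.9 and 25.1. Of 25 genes for the processing of mitochondrial ribosomal RNA and the assembly of the ribosome, 19 were called higher and 3 lower, and with equal sums 5 and 7. Rpusd4, a pseudouridine synthase, was at 28.6 and 24.3 FPKM against 6.97 and 7.59, and Fastkd2, which binds the large ribosomal RNA, at 24.8 and 24.1 against 6.76 and 7.47. Mettl15, a methyltransferase of the small ribosomal RNA, was at 3.02 and 3.49 FPKM against 8.03 and 8.27, and Mpv17l2 at 13.0 and 14.5 against 22.6 and 25.7. Members of this list thus differed in both directions.

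Of 15 genes for translation factors and related proteins, 9 were called higher in hybrid cells than in NSCs and 2 lower, and with equal sums 3 and 8, no larger a share higher than among all tested genes. Slirp, which with Lrpprc stabilizes mitochondrial mRNAs, was at 305 and 293 FPKM against 91.4 and 96.0, and Lrpprc at 50.2 and 43.6 against 20.4 and 20.8. Guf1, a GTPase of the elongation step, was at 12.1 and 13.7 FPKM in NSCs, 9.48 and 8.76 in EPSCs, and 4.67 and 4.57 in hybrid cells, so it was lowest in the fusion product. Of 17 mitochondrial tRNA synthetases, 11 were called higher and 5 lower, and with equal sums 5 and 8, again no larger a share higher. Among them were Yars2 at 46.5 and 37.0 FPKM against 15.2 and 16.5, and Wars2 at 1.74 and 2.00 against 4.67 and 4.57. Between EPSCs and ESCs, 8 of the 15 translation factor genes were called higher and none lower, against 33.7% and 27.3% of all tested genes. Under each other scaling 7 were called higher and none lower, against 29.7% to 30.6% and 29.2% to 31.2%. Tufm, the elongation factor that delivers tRNA, was at 97.0 and 97.7 FPKM in EPSCs and 59.4 and 55.7 in ESCs, and Gfm1, which moves the ribosome along, at 58.3 and 53.1 against 32.0 and 34.0.

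Of 9 genes for the replication and transcription of mitochondrial DNA, 8 were called higher in hybrid cells than in NSCs and 1 lower, and with equal sums 7 and 2. Ssbp1, the single-strand binding protein, was at 86.9 and 81.7 FPKM against 28.6 and 26.2, and Tefm, a transcription elongation factor, at 24.2 and 19.2 against 6.40 and 7.37. Polg, the DNA polymerase, went the other way, at 14.3 and 15.6 FPKM against 45.2 and 45.6. Of 10 regulators of nuclear genes for mitochondrial proteins, 7 were called higher and 3 lower (3 and 4 with equal sums). Pprc1, a coactivator of the PGC-1 family, was at 82.7 and 71.7 FPKM in hybrid cells and 15.4 and 17.0 in NSCs, and Gabpa, the ETS factor, at 45.3 and 48.5 against 23.1 and 24.9. Ppargc1a, which encodes PGC-1alpha, was at 6.39 and 6.50 FPKM in NSCs and at 0.0132 FPKM or below in every other library. The 2 coactivators thus ran in opposite directions between NSCs and the other cells, and this held under each scaling for hybrid cells against NSCs. These lists had no test of their own, and the same 2 NSC libraries enter every count.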

How the data were processed

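RNA sequencing was performed on 8 libraries, 2 each of ESCs, NSCs, EPSCs and hybrid cells. The authors prepared stranded poly-A libraries, trimmed reads with skewer, aligned them to mm10 with STAR 2.7.9a, and deposited FPKM for each gene and library from Cuffnorm of Cufflinks 2.2.1. The annotation, the strand setting and the library normalization of Cuffnorm are not given in the sources used here. Replicates were not pooled, and 0 columns belonged to other samples.

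Members were matched by symbol and all 77 were found in RefSeq. Groups were compared in R 4.3.3 with limma 3.58.1 (lmFit, contrasts, eBayes with trend; two-sided) on log2(FPKM + 1). All 4 groups were in one fit, over the 13239 genes that reached a group mean of 1 FPKM in any group, and genes were called at a Benjamini-Hochberg adjusted p under 0.05. A fold change on this scale understates the change of low genes. With 2 libraries against 2, the smallest two-sided p of an exact permutation test is 0.333, and none was used. Lists, motifs and counts used Python 3.11.15 with pandas 2.3.3. Overlaps of exons were taken from GENCODE M21. Depth was derived from FPKM steps of 2247 genes with 1 transcript over 1500 bases, assuming fragments of 200 bases. The model was tested on simulated data, and no result of that test is used here.

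The rule for the members used symbols alone, but it, the lists and the tests were set with earlier results of these data known. Named are, in each comparison, the 5 called members with the largest and the 5 with the smallest log2 fold change and no overlap of libraries, the 5 highest and 5 lowest means, the S18 paralogs, the stalk genes, Mrps36, and in other lists up to 2 called genes in each direction, of which a part is shown. Tmem63b, Mapk8ip3, Nme3 and Slc5a3 were named for their overlap with members. The rule of the study names an average level without saying of which groups, and was applied to the mean of the higher group. Its results also use thresholds of 2, which were run as an alternative. For the alternatives of this rule no shares of all tested genes are given. Alternatives covered the constant added before the logarithm, the low-value filter, 3 scalings, the groups in the fit, a replicate block, the thresholds, and each library left out. Counts of members beyond all other libraries under each scaling were added after the values were seen.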

Additional observations from a re-analysis of the deposited data

How the results depend on the processing

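The scaling between libraries moved most counts against NSCs, and the scaling, the groups in the fit and the libraries left out moved those between hybrid cells and EPSCs. In the latter comparison 25 members were called higher and 13 lower with FPKM as deposited. Under the 3 other scalings 28 to 33 were called higher and 12 to 15 lower, against 21.1% to 25.2% and 19.7% to 22.8% of all tested genes. With each library at a sum of 1000000, the members called higher and lower were 38 and 26 for hybrid cells against NSCs, 37 and 23 for EPSCs against NSCs, and 26 and 35 for ESCs against NSCs, and the rule of the study was passed by 1 member in each of these comparisons and by 0 for EPSCs against ESCs. Quantile normalization moved the median of the members relative to all tested genes to 0.45, 0.37 and 0.18 in the 3 comparisons with NSCs. It moved the members called lower in EPSCs than in NSCs to 12, against 40.8% of all tested genes. Which scaling is nearer to the content of the cells was not tested. A fit of 2 groups called 11 members higher and 6 lower in hybrid cells than in EPSCs. With both thresholds of the rule of the study at 2, it was passed by 29, 26 and 16 members against NSCs in hybrid cells, EPSCs and ESCs. Shares of all tested genes at these thresholds are not given here. With each library left out in turn, members called lower ranged from 5 to 6 for ESCs against NSCs and from 7 to 15 for hybrid cells against EPSCs, and members that passed the rule for EPSCs against ESCs from 0 to 1. Each of these fits left 1 library in a group, and these counts alone do not set the members apart. For ESCs against NSCs the median log2 fold change of the members was 0.36 to 0.40, against 0.02 to 0.04 for all tested genes. For hybrid cells against EPSCs it was 0.00 to 0.12, against 0.00 for all tested genes. Over the genes named with a fold change, 962 of the alternative values counted as unchanged, 13 fell short of the threshold and 3 newly passed it. A further 5 changed direction with a call in at least 1 of the 2 fits, all with equal sums. These 5 were Mrpl10 (-0.16), Mrps11 (-0.19), Mrps18a (-0.46) and Mrps36 (-0.49) in hybrid cells against NSCs and Mrps11 (-0.22) in EPSCs against NSCs. A change of direction between values that were both not called counted as unchanged. An example is Mrps18a in hybrid cells against NSCs after quantile normalization (-0.12, against 0.16 as deposited).

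The labels name no pairing of the libraries, and the deviations of libraries with the same number correlated with r from -0.11 to 0.28. With the replicate number as a block, 64 members were called higher and 7 lower for hybrid cells against NSCs (44.7% and 42.2% of all tested genes). For hybrid cells against EPSCs these were 28 and 14 (23.1% and 22.7%), and for EPSCs against NSCs 62 and 4 (45.2% and 41.2%). For EPSCs against ESCs they were 44 and 10 (34.2% and 28.1%), and for ESCs against NSCs 56 and 7 (43.1% and 42.0%).

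With 2 libraries of 1 line each, small differences between hybrid cells and EPSCs rest on few degrees of freedom.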
